A study of Mus musculus with 35 samples.

Results

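Histone H3 modifications at 9 mouse genes of meiotic recombination and crossover formation, Dmc1, Msh4, Msh5, Mlh3, Meiob, Spata22, Hsf2bp, Rnf212 and Psmc3ip, were described from 13 deposited peak lists of female germ cells. The genes were taken by name at their GRCm38 positions, out of 21631 protein-coding genes on the autosomes and X, and the rule that lists them uses no measured value. The lists came from CATCH-seq, a native chromatin immunoprecipitation for few cells that uses micrococcal nuclease and carrier DNA. The marks were H3K4me3, found at active and poised promoters, H3K27me3, the product of Polycomb repressive complex activity, and H3K36me3, found over transcribed gene bodies. Cultured stages were oogonia-like cells at c7 and oocyte-like cells at c13 and at c34, all derived from H18, a single embryonic stem cell line that carries Prdm1-mVenus and Dppa3-ECFP reporters. The stages from animals were E18.5 oocytes of mice with the same pair of reporters and germinal vesicle (GV) oocytes of BDF1 mice, so E18.5 and GV oocytes also differ in strain. All groups were labelled wild type, and the study's title is about deriving GV oocytes from embryonic stem cells with no somatic cells of the ovary.

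Meiotic recombination starts with programmed DNA breaks, whose single-stranded ends search the homologous chromosome for a template. Some of the joined intermediates are then matured into crossovers, which hold homologues together until the first meiotic division. In the mouse female these steps take place in the fetal ovary, after which oocytes arrest and grow to the GV stage. Dmc1 encodes the meiotic recombinase that pairs the broken end with its template, and Psmc3ip (HOP2) encodes an activator of it. Hsf2bp (MEILB2) encodes a partner of BRCA2 that brings recombinases to breaks. Meiob and Spata22 encode partner proteins that bind single-stranded DNA with replication protein A. Msh4 and Msh5 encode the MutSgamma pair that stabilises intermediates, Rnf212 a RING protein that stabilises that pair on chromosomes, and Mlh3 the MutLgamma subunit that cuts intermediates into crossovers.

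The genes lie on 6 chromosomes of GRCm38. Among the strand exchange genes, Dmc1 spans chr15:79561497-79605159 (43.7 kb) and Psmc3ip chr11:101092141-101095435 (3.29 kb). Hsf2bp spans chr17:31944769-32034895 (90.1 kb), Meiob chr17:24804301-24839788 (35.5 kb) and Spata22 chr11:73326560-73346592 (20 kb). Among the crossover genes, Msh4 spans chr3:153857141-153906138 (49 kb), Msh5 chr17:35028605-35046997 (18.4 kb), Mlh3 chr12:85234466-85270647 (36.2 kb) and Rnf212 chr5:108728105-108775067 (47 kb). Starts came from the RefSeq promoter table, in which 8 of the 9 genes were listed. Meiob was scored at either annotated end. The listed start of Spata22, at position 73329741 on the plus strand, lies inside its annotated span, and that of Msh4 does so too, while the other 6 starts lie close to a span end. Several starts have close neighbours: Retreg3 ends 887 bp from the Psmc3ip start, Rrp1b starts 1654 bp from that of Hsf2bp, and Clic1 starts 3621 bp from that of Msh5. Spata22 overlaps Aspa, Psmc3ip overlaps Mlx and Meiob overlaps Hagh at its higher coordinate, so a peak there cannot be assigned to a single gene.

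The promoters of 4 genes are shown. Spata22, Msh5 and Rnf212 were taken because their calls for a single mark differ most among the lists. Spata22 had H3K4me3 at its start in 2 of 4 lists, and Msh5 and Rnf212 had H3K27me3 at their starts in 2 of 5 lists. Dmc1 stands for the genes with H3K4me3 in all 4 and H3K27me3 in 1 of 5. Each run holds 250 bases before and 50 after the start, 5′ to 3′ on the gene's strand, from RefSeq on GRCm38.p6. Capitals mark matches, on either strand, to CACGTG, an E-box, TCCCGCC, a core of E2F sites, or CNCCTCAG, so that a TCCCGCC on the other strand reads GGCGGGA. The positions are chr11:73329491-73329790 (plus strand) for Spata22, chr17:35046573-35046872 (minus) for Msh5, chr5:108774978-108775277 (minus) for Rnf212 and chr15:79605060-79605359 (minus) for Dmc1.
Spata22: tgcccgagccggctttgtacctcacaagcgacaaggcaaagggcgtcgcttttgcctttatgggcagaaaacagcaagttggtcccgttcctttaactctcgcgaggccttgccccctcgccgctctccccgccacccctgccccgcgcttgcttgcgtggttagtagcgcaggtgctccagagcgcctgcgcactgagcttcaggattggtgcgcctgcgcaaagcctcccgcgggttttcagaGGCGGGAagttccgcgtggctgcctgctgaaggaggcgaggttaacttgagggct
Msh5: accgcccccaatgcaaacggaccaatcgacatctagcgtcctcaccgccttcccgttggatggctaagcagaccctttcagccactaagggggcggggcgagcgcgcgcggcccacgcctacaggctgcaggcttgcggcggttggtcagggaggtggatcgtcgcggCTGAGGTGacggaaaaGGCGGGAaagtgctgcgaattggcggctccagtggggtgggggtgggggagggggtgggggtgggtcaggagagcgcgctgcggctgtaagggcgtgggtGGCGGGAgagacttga
Rnf212: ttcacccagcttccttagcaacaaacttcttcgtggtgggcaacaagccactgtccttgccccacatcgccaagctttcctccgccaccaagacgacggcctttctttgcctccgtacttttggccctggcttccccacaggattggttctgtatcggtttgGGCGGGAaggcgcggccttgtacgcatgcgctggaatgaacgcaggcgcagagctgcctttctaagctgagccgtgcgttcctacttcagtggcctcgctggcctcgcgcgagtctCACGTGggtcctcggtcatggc
Dmc1: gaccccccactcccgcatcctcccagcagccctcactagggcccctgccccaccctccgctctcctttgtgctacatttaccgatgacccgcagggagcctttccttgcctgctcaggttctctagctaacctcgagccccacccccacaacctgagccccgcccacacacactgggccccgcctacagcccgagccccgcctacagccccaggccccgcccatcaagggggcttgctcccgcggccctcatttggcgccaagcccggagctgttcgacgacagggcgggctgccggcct
TCCCGCC was found in 4 of the 8 promoters (Msh5, Spata22, Rnf212 and Psmc3ip), against 15% of 21045 promoters of the same length. CACGTG was found in Rnf212 alone, against 7.91%, and CNCCTCAG in Msh5 alone, against 8.6%. None of the 3 motifs was present in all 8 promoters. In Msh5 the CNCCTCAG and the nearer TCCCGCC matches do not overlap, and no match was found in the windows of Dmc1, Msh4, Mlh3 or Hsf2bp. CpG dinucleotides numbered 27 in Msh5, 25 in Spata22, 24 in Psmc3ip, 22 in Mlh3, 22 in Rnf212, 20 in Hsf2bp, 18 in Dmc1 and 6 in Msh4, against a median of 13 and quartiles of 4 and 25 over all promoters. Msh4, which had H3K4me3 in every list, was thus the poorest of the 8 in CpG.

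Each stage and mark had 1 peak list and none of the lists was a replicate, so the spread between replicates is unknown and no test was made. Per the labels the libraries behind a list numbered 1 to 4, with a single library for H3K4me3 and for H3K27me3 in GV oocytes. Read depth was unknown, and lists differed in covered length: the H3K4me3 lists ran from 135 Mb, in E18.5 oocytes, to 645 Mb, in GV oocytes. Counts of called genes are therefore read against the share of all genes called in the same list. A gene was called for H3K4me3 or H3K27me3 when a peak touched the 1 kb on either side of its start, and for H3K36me3 when 20% or more of its body lay in peaks. Of 9 markers of female germ cells and oocytes, H3K4me3 lay at the start of 9 in c13, 9 in c34, 8 at E18.5 (all but the zona pellucida gene Zp3) and 9 in GV oocytes. Of 8 markers of ovarian somatic cells it lay at 5, 4, 4 and 4 in the same order, and of 3 blood markers at 0, 0, 1 and 1. The shares of all genes were 70.5%, 64.7%, 60.7% and 71.9%. In c7, c13, c34, E18.5 and GV oocytes, H3K27me3 lay at 5, 7, 4, 4 and 3 germ cell markers. It lay at 8, 7, 8, 7 and 6 somatic markers and at 1, 1, 2, 2 and 2 blood markers. For H3K27me3 the shares of all genes were 40.9%, 55.5%, 38.4%, 35.0% and 24.4%. The part of other cells in the results was not tested. At c7, where H3K27me3 was the sole list, the label could not be checked by H3K4me3.

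**Figure D1:**
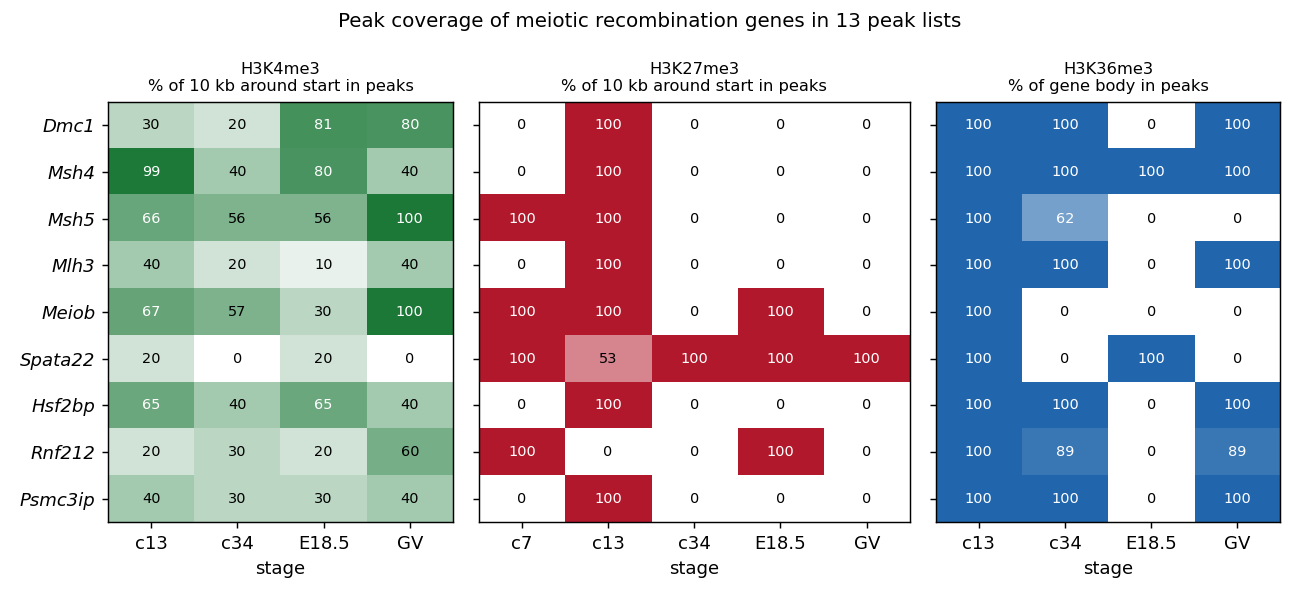
Peak coverage of the 9 genes (rows) at each stage (columns), in percent of the 10 kb around the start for H3K4me3 and H3K27me3 and in percent of the gene body for H3K36me3. Spata22 is blank for H3K4me3 in c34 and GV oocytes, and Rnf212 is the gene with no H3K27me3 in c13.

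H3K4me3 marked the starts of nearly all recombination genes at every stage with a list. It was called at 9 of 9 starts in c13 and 8 of 9 in c34, and at 9 of 9 in E18.5 oocytes and 8 of 9 in GV oocytes. Over all genes with a listed start, 70.5% were called in c13, 64.7% in c34, 60.7% in E18.5 oocytes and 71.9% in GV oocytes. The gene without the mark in c34 and in GV oocytes was Spata22 in both cases. Its start lay in a 2 kb peak in c13 and in a 2 kb peak at E18.5, both from 0.74 kb upstream to 1.26 kb downstream. In c34 and in GV oocytes the nearest H3K4me3 peak was 58.7 kb away. Its partner Meiob kept a peak at its lower-coordinate end in all 4 lists, of 9 kb in c13, 8 kb in c34, 3 kb in E18.5 oocytes and 35 kb in GV oocytes. The calls of the pair thus differed in c34 and in GV oocytes.

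Among the recombinase and its helpers, the peak at the Dmc1 start was 3 kb wide in c13 and 2 kb in c34, against 11 kb in E18.5 oocytes and 8 kb in GV oocytes. Dmc1 was narrower in both cultured lists than in both lists from animals, and at E18.5 its peak reached 7.89 kb upstream. There it passed the end of Fam227a, 4467 bp from the Dmc1 start, so the 11 kb width cannot be assigned to Dmc1 alone. The Hsf2bp peak was 4 kb in c34, with the same edges in GV oocytes, against 10 kb in c13, with the same edges at E18.5. This peak covered the Rrp1b start, 1654 bp upstream, in every list, so its width cannot be assigned to Hsf2bp alone. At Psmc3ip the peak was 4 kb in c13, 3 kb in c34, 3 kb in E18.5 oocytes and 4 kb in GV oocytes, close to the length of the gene. These peaks lie on a 1 kb grid, so differences of 1 kb are the smallest that can be seen.

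Among the crossover genes, Msh4 had a peak of 15 kb in c13, 4 kb in c34, 8 kb in E18.5 oocytes and 4 kb in GV oocytes. The c13 peak reached 10.1 kb upstream, past both the end of Rabggtb, 2398 bp from the Msh4 start, and its start, 6076 bp away. In c34 and GV oocytes a separate peak lay from -11.1 to -6.11 kb (negative values upstream), and at E18.5 from -9.11 to -7.11 kb. The 15 kb width in c13 is thus not that of the Msh4 promoter alone. Msh5 had a peak of 24 kb in c13 and 14 kb in c34, against 7 kb in E18.5 oocytes and 74 kb in GV oocytes, the widest of the 9 genes in all lists but that of E18.5, where Dmc1 was. In GV oocytes the whole Msh5 body lay within that peak, whereas in E18.5 oocytes 5.42% of the body was covered. In every list the Msh5 peak also covered the start of Clic1, 3621 bp upstream, so its width cannot be assigned to Msh5 alone. Mlh3 had peaks of 4 kb in c13, 2 kb in c34, 1 kb in E18.5 oocytes and 4 kb in GV oocytes. Rnf212 had peaks of 2 kb in c13 and 3 kb in c34, against 2 kb in E18.5 oocytes and 6 kb in GV oocytes.

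The median width of the peaks at these starts was below that of all called genes in each list. The median over called members was 4 kb in c13, 3.5 kb in c34, 3 kb in E18.5 oocytes and 5 kb in GV oocytes, where the medians over all called genes were 7, 7, 5 and 15 kb. When only peaks at least as wide as the list's median were counted, 2 of 9 starts were called in c34 and 2 in GV oocytes, Msh5 and Meiob in both, against 44.1% and 43.6% of all genes. By the same rule 4 were called at E18.5 (Dmc1, Msh4, Msh5 and Hsf2bp), against 36.8%, and 6 in c13 (Msh4, Msh5, Mlh3, Meiob, Hsf2bp and Psmc3ip), against 50.4%. Over gene bodies, H3K4me3 covered at least 20% of 3 members in c13, 4 in c34, 3 in E18.5 oocytes and 3 in GV oocytes, with 42.1%, 36.1%, 26.0% and 43.5% of all genes. Psmc3ip was among them in every list, its length being close to that of its peak.

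**Figure D2:**
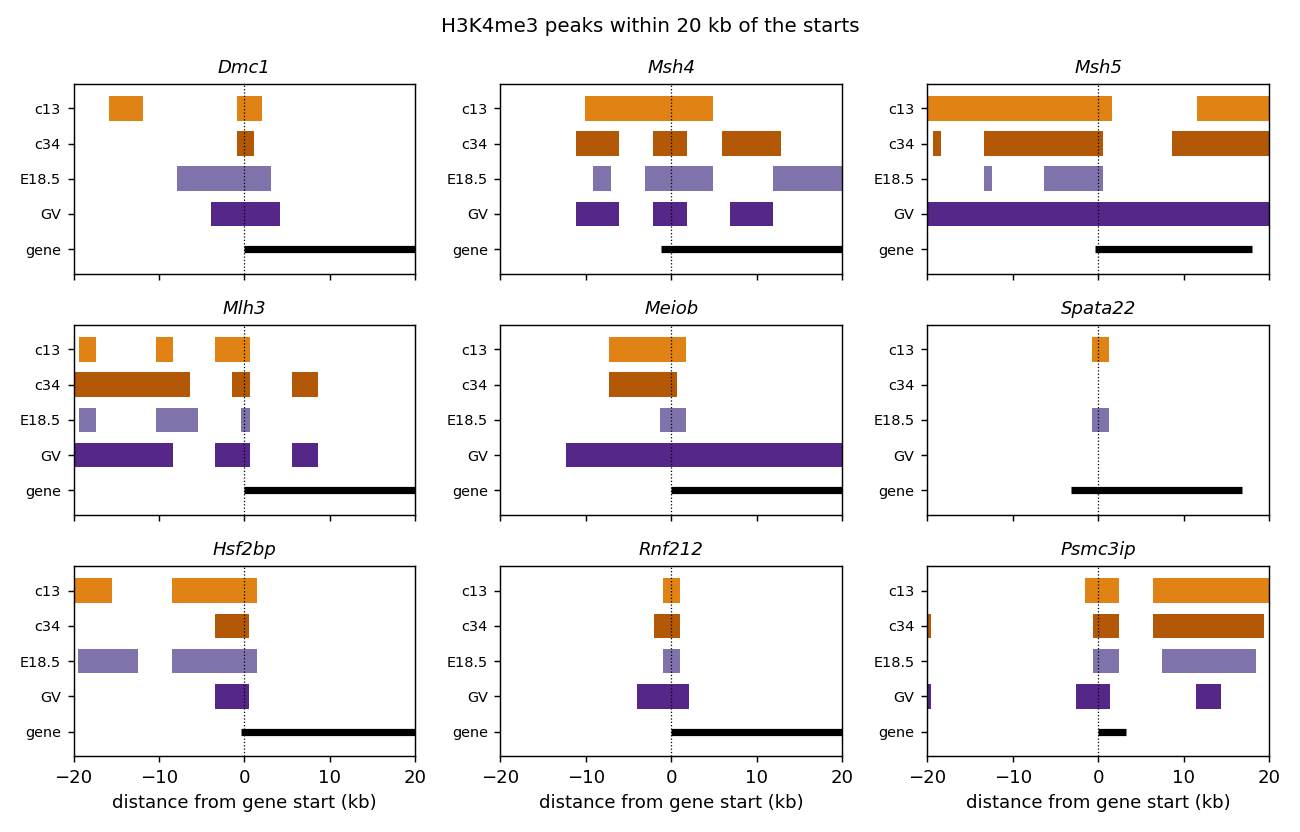
H3K4me3 peaks (bars) within 20 kb of each start, in kb from the start with positive values downstream, for c13, c34, E18.5 and GV oocytes, over the gene span (black). Peaks are cut at the edges of the panels, and Meiob is drawn from its lower-coordinate end. Spata22 has bars in c13 and at E18.5 only, and Msh5 and Meiob have the widest bars in GV oocytes.

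H3K27me3 was found at most recombination gene starts in c13 and at fewer of them at each other stage. It was called at 4 of 9 starts in c7, 8 in c13 and 1 in c34, and at 3 in E18.5 oocytes and 1 in GV oocytes. The shares over all genes were 40.9% in c7, 55.5% in c13, 38.4% in c34, 35.0% in E18.5 oocytes and 24.4% in GV oocytes. The counts in c7 and at E18.5 were near the background. Those in c34 and GV oocytes rest on Spata22 alone. Over gene bodies from 20% covered, the counts were 4, 7, 1, 3 and 1 in the same order of stages, with 41.4%, 54.2%, 39.5%, 35.3% and 26.6% of all genes.

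Spata22 was the member with H3K27me3 at its start in all 5 lists, in peaks of 330 kb in c7, 240 kb in c13, 180 kb in c34, 260 kb in E18.5 oocytes and 190 kb in GV oocytes. The c13 peak ended 0.259 kb downstream of the start and covered 17.2% of the body, where the other 4 lists covered 100%. In c34 and GV oocytes the peaks began 9.74 and 19.7 kb upstream of the start and shared the same downstream edge, 170 kb away. The widths exceed the gene by far, and Aspa, which overlaps it, lay partly in the same peaks.

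Meiob lay in a 150 kb peak in c7 and a 280 kb peak in c13, and in a 150 kb peak at E18.5 with the same edges as that of c7, chr17:24730001-24880000. In c34 the nearest H3K27me3 was 14.3 kb and in GV oocytes 144 kb from it. Rnf212 lay in a 260 kb peak in c7 and a 380 kb peak at E18.5, while the nearest peak was 35 kb away in c34 and, in both c13 and GV oocytes, 215 kb away. It was the single member without the mark in c13. Msh5 lay in a 500 kb peak in c7 and a 1160 kb peak in c13 that shared their upper edge, whereas the nearest peak was 133 kb away in c34, 66.6 kb in E18.5 oocytes and 143 kb in GV oocytes.

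Dmc1, Msh4, Mlh3, Hsf2bp and Psmc3ip had H3K27me3 at the start in c13 and in no other list. The c13 peaks were 2950 kb wide at Dmc1, 2610 kb at Msh4, 210 kb at Mlh3, 1980 kb at Hsf2bp and 790 kb at Psmc3ip. Together with Msh5, 4 of the 8 members called in c13 lay in peaks of 1 Mb or more. Without such peaks, 4 members stayed called in c13 (Mlh3, Meiob, Spata22 and Psmc3ip), beside 41.0% of all genes.

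H3K36me3 covered the bodies of 9 of 9 members in c13 and 7 in c34, and of 2 in E18.5 oocytes and 6 in GV oocytes. Of all genes, 67.8% were called in c13, 63.5% in c34, 22.1% in E18.5 oocytes and 62.2% in GV oocytes, so the counts in E18.5 and GV oocytes were near the background. Dmc1, Msh4, Mlh3, Hsf2bp and Psmc3ip were covered over 100% of the body in c13, in c34 and in GV oocytes. Of these genes Msh4 alone was also covered at E18.5, in a peak of 2360 kb. At Rnf212 the mark covered 100% of the body in c13 and 89.2% in both c34 and GV oocytes, where the peaks ended 5.03 kb inside the gene from its start. At Msh5 it covered 100% in c13 and 62% in c34, where the peak began 6.62 kb downstream of the start, and 0% in E18.5 oocytes and in GV oocytes.

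Meiob and Spata22 had 0% of their bodies covered in both c34 and GV oocytes. They were the 2 members called for H3K36me3 in neither list, as were 31.3% of all genes, so this was not particular to the pair. The nearest H3K36me3 peak lay 10.2 kb beyond the higher-coordinate end of Meiob in c34 and also in GV oocytes, and it was 430 and 420 kb wide. For Spata22 the nearest peak lay 29.7 kb from the start in each of these lists. Both genes were covered over 100% in c13, and Spata22 also at E18.5 in a peak of 1010 kb. Psmc3ip is shorter than the 10 kb grid of the H3K27me3 and H3K36me3 lists, so values between 0 and 100% could hardly arise there.

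In c13, 8 of the 9 members lay in H3K36me3 peaks of 1 Mb or more, from 2030 kb at Spata22 to 17950 kb at Psmc3ip. Meiob and Hsf2bp lay in the same peak of 9640 kb, chr17:23510001-33150000, and do not count as separate observations. Without peaks of 1 Mb or more, 1 member (Rnf212) was called in c13 and 0 at E18.5, beside 11.8% and 13.5% of all genes. In c34 and GV oocytes, by contrast, no member lay in such a peak, and the widths over called members ran from 60 to 630 kb in c34 and from 100 to 460 kb in GV oocytes.

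**Figure D3:**
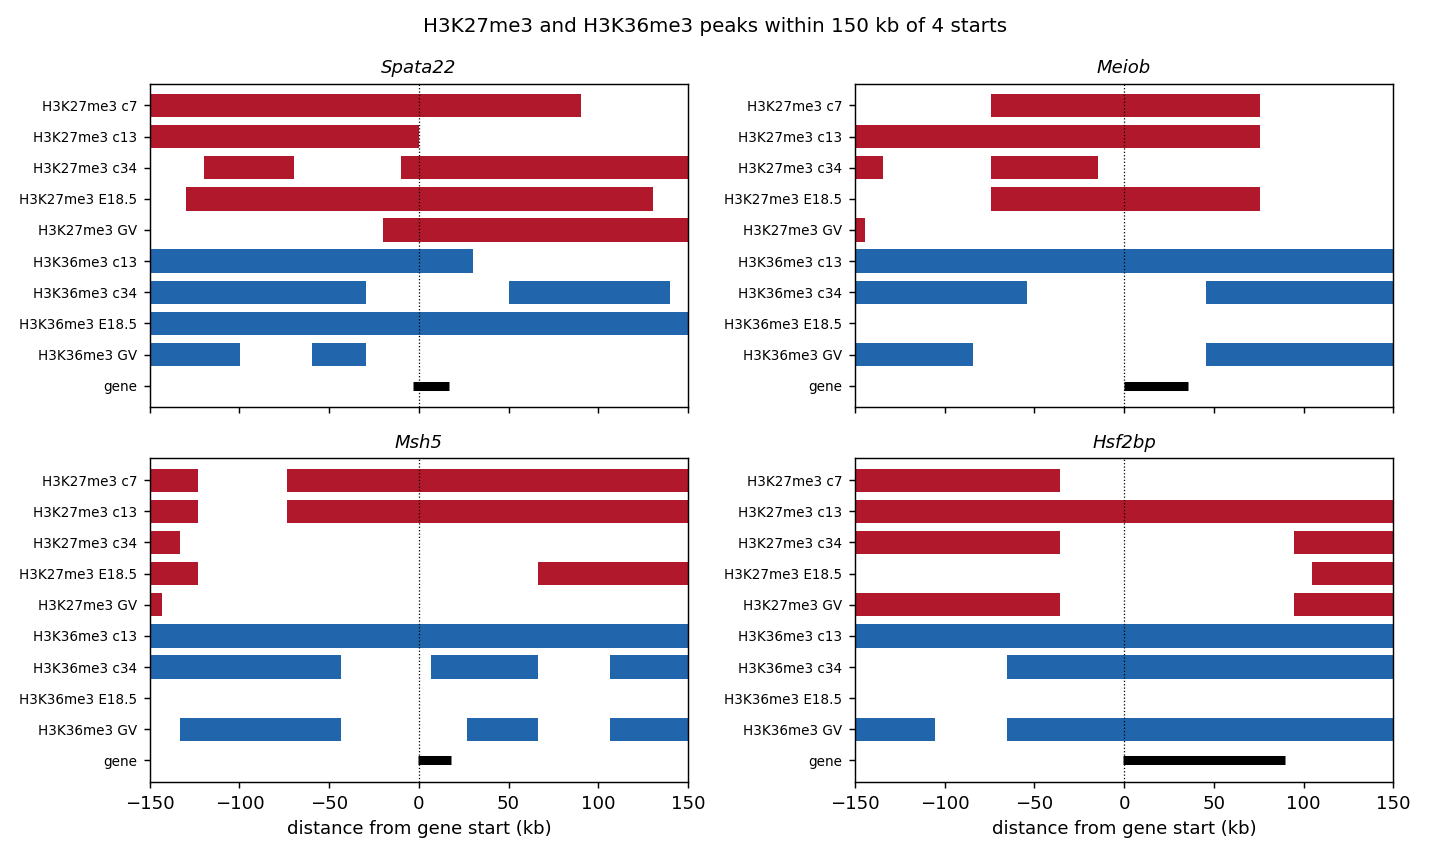
H3K27me3 (red) and H3K36me3 (blue) peaks within 150 kb of the starts of Spata22, Meiob, Msh5 and Hsf2bp, in kb from the start with positive values downstream, over the gene span (black). Peaks are cut at the edges of the panels. H3K27me3 crosses the Spata22 start in all 5 lists, and the Meiob body lies in a gap of both marks in c34 and GV oocytes.

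The marks were then read together. In c13, H3K4me3 and H3K27me3 were both called at the start of 8 members, all but Rnf212, and the same 8 also had H3K36me3 over the body. For all genes, 44.7% had both marks at the start and 38.1% had the 3 marks. In c34 no member had H3K4me3 and H3K27me3 together, and in GV oocytes none did, against 20.8% and 12.6% of all genes. At E18.5, Meiob, Spata22 and Rnf212 had both, against 16.5% of all genes. Of them Spata22 alone had the 3 marks together at E18.5, as did 3.69% of all genes, while the shares in c34 and GV oocytes, where no member had them, were 13% and 5.67%. H3K4me3 at the start with H3K36me3 over the body and no H3K27me3 at the start was found for 7 members in c34 and 6 in GV oocytes, with 40.4% and 47.6% of all genes. It was found for 1 member in c13 (Rnf212) and 1 at E18.5 (Msh4), with 17.8% and 8.87% of all genes. H3K4me3 was the only called mark of Dmc1, Msh5, Mlh3, Hsf2bp and Psmc3ip at E18.5, as for 35.4% of all genes. It was the only one of Meiob in c34, and of Msh5 and Meiob in GV oocytes, as for 3.5% and 11.7%. Spata22 carried H3K27me3 at the start as its only called mark in c34 and in GV oocytes, as 12.5% and 9.23% of all genes did.

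Dmc1, Mlh3, Hsf2bp and Psmc3ip had the same 13 calls: H3K4me3 at every stage, H3K27me3 in c13 alone, and H3K36me3 in all lists but E18.5. This pattern was the second most frequent of 1926, with 1351 of 17275 genes or 7.82%. The other patterns were rarer. That of Msh4, which differed in having H3K36me3 at E18.5, was shared by 168 genes, itself included, that of Rnf212 by 25, of Msh5 by 19, of Meiob by 16 and of Spata22 by 9.

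The latest cultured stage, c34, was set beside the full-grown GV oocyte, the stage that the study's title names. Of 27 calls (9 genes, 3 marks), 26 were the same, the exception being H3K36me3 over Msh5, called in c34 and not in GV oocytes, as were 6.46% of all genes. The Msh5 peaks, 60 kb wide in c34 and 40 kb wide in GV oocytes, began at the same position, chr17:34980001-35040000 in c34 and chr17:34980001-35020000 in GV oocytes, so the difference amounts to 20 kb of peak. Over all genes the calls were the same for 86.7% with H3K4me3, 80.6% with H3K27me3 and 88.3% with H3K36me3. The H3K36me3 peaks over Mlh3 (150 kb), Hsf2bp (360 kb) and Psmc3ip (330 kb) had identical edges in c34 and GV oocytes. Those over Dmc1 (630 and 250 kb), Msh4 (90 and 100 kb) and Rnf212 (630 and 460 kb) differed in width. The H3K4me3 peaks at the Msh4 and Hsf2bp starts also had identical edges. At the other called starts they were wider in GV oocytes, as at Msh5 (74 against 14 kb) and Meiob (35 against 8 kb).

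The earlier oocyte-like stage, c13, was set beside E18.5 oocytes, and 13 of 27 calls were the same. H3K4me3 was alike at 9 of 9 starts, where 89.4% of all genes were alike. H3K27me3 was alike at 2 (Meiob and Spata22), where 60.6% of all genes were alike. Of the other 7 members, 6 were called in c13 only and Rnf212 at E18.5 only, as were 30.0% and 9.44% of all genes. H3K36me3 was alike at 2 (Msh4 and Spata22), where 35.8% of all genes were alike, and the other 7 were called in c13 only, as were 55.0% of all genes. Without peaks of 1 Mb or more, 6 members were alike for H3K27me3, where 61.3% of all genes were, and 8 for H3K36me3, where 83.2% were. The 8 were called in neither list.

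Between successive stages, c34 and c13 had the same call in 17 of 27 cases. By mark these were 8 of 9 for H3K4me3, 2 for H3K27me3 and 7 for H3K36me3, with 87.6%, 68.2% and 73.3% of all genes. Spata22 was called for H3K4me3 in c13 and not in c34, as were 9.08% of all genes, and 7 members were called for H3K27me3 in c13 and not in c34, as were 24.5%. Meiob and Spata22 were called for H3K36me3 in c13 and not in c34, as were 15.6%. No member was called in c34 and not in c13 for any mark, where 3.31%, 7.36% and 11.2% of all genes were. GV and E18.5 oocytes had the same call in 18 of 27 cases, 8 of 9 for H3K4me3, 7 for H3K27me3 and 3 for H3K36me3, with 80.5%, 68.4% and 43.3% of all genes. Spata22 again was called for H3K4me3 in E18.5 oocytes and not in GV oocytes, as were 4.2% of all genes. Meiob and Rnf212 were called for H3K27me3 in E18.5 oocytes and not in GV oocytes, as were 21.1%. For H3K36me3, 5 members were called in GV oocytes and not at E18.5, as were 48.4%, and Spata22 at E18.5 only, as were 8.31%. These comparisons share lists with those above and are not independent of them.

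For c7, with H3K27me3 alone, 8 of 9 calls were the same as at E18.5, the exception being Msh5, called in c7 only. All genes had the same call in 79.2% of cases and were called in c7 only in 13.4%. In c13, 5 members (Dmc1, Msh4, Mlh3, Hsf2bp and Psmc3ip) were called that were not called in c7, and Rnf212 was called in c7 only, against 23.5% and 8.83% of all genes. The other 3 members had the same call in c13 and c7, as did 67.7% of all genes.

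**Figure D4:**
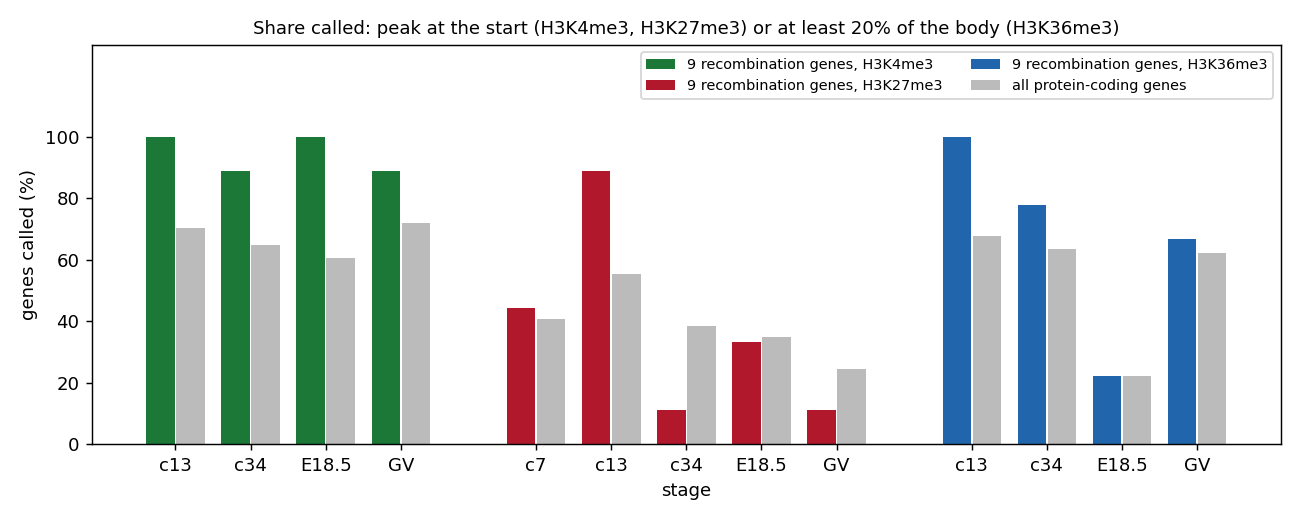
Percent of genes called in each list for the 9 recombination genes (coloured) and all protein-coding genes (grey), by a peak at the start for H3K4me3 and H3K27me3 and by at least 20% of the body for H3K36me3. Grey bars cover 21631 genes for H3K36me3. For the other marks they cover the 17275 genes with a listed start, Meiob included. H3K4me3 at E18.5 reached 9 of 9 members and 60.7% of all genes, and H3K27me3 in c34 1 of 9 members and 38.4% of all genes.

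The surroundings of the genes were compared over the 200 kb centred on each start. For H3K4me3, a median of 77.8% of the c34 length (range 22.2 to 100% over 9 members) lay in GV peaks, and a median of 56.2% of the GV length (21.8 to 83.2%) lay in c34 peaks. Around Hsf2bp the c34 share was 22.2%, the lowest. For H3K36me3 the medians were 88.9% of the c34 length and 100% of the GV length, and Spata22 was lowest with 25.2% of the c34 length. For H3K27me3 a median of 45.2% of the c34 length was shared (0 to 100% over the 8 members with any), and of 100% of the GV length (91.6 to 100% over 5). Around Spata22, the H3K36me3 length was 120 kb in c34, against 30.3 kb in GV oocytes. Between c13 and E18.5, a median of 44.9% of the c13 H3K4me3 length and of 89.5% of the E18.5 length was shared. For H3K27me3 the medians were 29.6% of the c13 length and 100% of the E18.5 length, the latter over 7 members. For H3K36me3 they were 0% of the c13 length and 65.1% of the E18.5 length, the latter over 3 members. Each of these H3K27me3 and H3K36me3 shares ranged from 0 to 100%. The H3K4me3 shares ranged from 19.3 to 61.4% of the c13 length and from 51.6 to 100% of the E18.5 length. Around Dmc1, Msh4, Hsf2bp and Psmc3ip the c13 H3K27me3 peaks filled the whole 200 kb, so any E18.5 length there was necessarily shared. The same held for H3K36me3 around Msh4. Surroundings of some members hold many other genes, so the shares in this comparison describe loci and not the members alone. The same shares around all genes were not computed.

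Other genes of the pathway were counted from a list by role, of which 44 of 45 matched the gene table. H3K4me3 lay at the start of 42 in c13, 37 in c34, 42 in E18.5 oocytes and 42 in GV oocytes. All 12 strand exchange genes, among them Brca2, had it in all 4 lists. Of 11 crossover genes 10 had it in each list, though the gene without it was not the same in all. In c13, c34, E18.5 and GV oocytes it lay at 8, 6, 8 and 9 of 9 break formation genes. In the same order it lay at 12, 9, 12 and 11 of 12 genes of the axis and synaptonemal complex. H3K27me3 lay at 16 of 44 in c7, 31 in c13, 17 in c34, 11 in E18.5 oocytes and 9 in GV oocytes, and H3K36me3 covered 40 bodies in c13, 31 in c34, 9 in E18.5 oocytes and 38 in GV oocytes. Over all genes H3K27me3 was called at 40.9%, 55.5%, 38.4%, 35.0% and 24.4% of starts in the same order of stages, H3K4me3 at 70.5%, 64.7%, 60.7% and 71.9%, and H3K36me3 over 67.8%, 63.5%, 22.1% and 62.2% of bodies. By role, H3K27me3 in c13 lay at 8 of 9 break formation genes, 7 of 12 strand exchange genes, 6 of 11 crossover genes and 10 of 12 genes of the axis and synaptonemal complex, beside the 55.5% of all genes.

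Likeness of pattern was measured as the mean absolute difference, in percentage points over the 13 lists, of the coverage values in the plot of coverage by gene and stage. Among the members, Mlh3 and Psmc3ip were closest at 2.31 points, and Spata22 was farthest from all others, 43.2 points from Meiob as its nearest. Of the other pathway genes, Iho1, a gene of break formation, was 3.71 from Mlh3 and 7.14 from Dmc1. The nearest to Spata22 was Tex11, an X-linked crossover gene, at 24.8 points. Tex11 also had H3K4me3 at its start in c13 and in E18.5 oocytes and not in c34 or GV oocytes, with H3K27me3 at its start in c34 and in GV oocytes. Unlike Spata22 it had no H3K27me3 at the start in c13. Their H3K36me3 also differed, with 0% of the Tex11 body covered in c13 and 32.3% in GV oocytes, where Spata22 had 100% and 0%. H3K27me3 at the start in all 5 lists was also found for Mei1, 29.2 points from Spata22, and for Syce3 and Smc1b. The share of all genes called in all 5 lists was not computed. Outside the pathway, Map3k10 had the same 13 values as Psmc3ip (0 points), Pcyt1a was 0.658 points from Hsf2bp, and Gzmn was 4.11 points from Spata22.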

How the data were processed

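The authors deposited 13 peak lists, 1 per stage and mark, which per the file headers hold a chromosome, a start and an end and no score. Starts count from 0 and ends are inclusive, in steps of 1 kb for H3K4me3 and of 10 kb otherwise. Per the submitters' processing notes the builds were GRCm38.p3 and mm10, and the tools MACS2 2.1.1, SICER 0.0.41, Bowtie2 2.3.4.1, Picard 2.18.23, SAMtools 1.7, deepTools 3.5.0, bedtools 2.29.2, cutadapt 1.9.1 and Trim Galore 0.4.1. The caller of each list, its threshold, any use of input and any pooling were not given in the sources used here. Depth per library is unknown, so a longer list may come from deeper libraries or a looser threshold.

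Coordinates in the text are 1-based. Gene spans and starts came from RefSeq tables of GRCm38.p6, which shares its chromosomes with the builds named. All 9 members matched by symbol. A start call needed 1 bp of peak within 1 kb of any listed start, over 17275 genes (those with a listed start, and Meiob at either end). A body call needed 20% coverage, over 21631 genes. With 1 list per stage and mark there is no test, p-value or error. The members and lists were chosen with earlier results of these data known. All members are named, with the nearest pathway genes and the nearest gene on another chromosome by likeness, and overlapping or adjacent genes. Brca2, Zp3, Syce3 and Smc1b were named after their values were seen. Some genes that met the rule are left out of the text. On simulated peaks at 200 genes, 200 were recovered. Work used Python 3.11.15, numpy 2.4.6, pandas 2.3.3 and matplotlib 3.10.9. Alternatives changed the window, the rule on gene ends, the share covered, the minimum width and the widest peaks. Input libraries have no list and were not used here.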

Additional observations from a re-analysis of the deposited data

How the results depend on the processing

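No paired analysis was possible because each stage and mark had a single peak list, so replicate numbers of the libraries carry no values. Of 140 recomputed counts, 125 stayed within 1.5 times the reported count and 15 did not. With only peaks at least as wide as the list's median, H3K4me3 was called at 2 starts in c34, 4 in E18.5 oocytes and 2 in GV oocytes. Members with the same H3K4me3 call then numbered 5 between c13 and E18.5, 5 between c34 and c13 and 5 between GV and E18.5, and those with the same H3K27me3 call between c13 and E18.5 numbered 1. Without peaks of 1 Mb or more, H3K27me3 was called at 4 starts in c13, and H3K36me3 over 1 body in c13 and 0 at E18.5. Members alike between c13 and E18.5 then numbered 6 for H3K27me3 and 8 for H3K36me3, those between c34 and c13 6 for H3K27me3 and 3 for H3K36me3, and those between c13 and c7 5 for H3K27me3. These changes follow from leaving out narrow or wide peaks. For pairs of lists, the share of all genes alike was computed only for c13 and E18.5 without peaks of 1 Mb or more. It was 61.3% for H3K27me3 and 83.2% for H3K36me3. The other counts of members alike under these settings have no such share beside them and are not read as a result about the members. Windows of 0.5 and 5 kb, the rule of either gene end, at least 50% of the window, and body calls from any overlap or from 50% changed no count by more than 1.5 times. By either gene end, Spata22 was not called for H3K4me3 in any list, since its listed start lies inside its span. Depth and signal height were unknown, so a missing peak does not show that the mark was absent.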

Other observations

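Some members without H3K27me3 at the start lay beside blocks of it that had the same edges in several, though not all, lists. Hsf2bp had its nearest H3K27me3 peak 35.5 kb from the start in c7, c34 and GV oocytes, and in all 3 lists this was the same 120 kb peak, chr17:32070001-32190000. In c13 that upper edge was shared by a peak of 1980 kb that ran over the gene, and at E18.5 the nearest peak was a different one, chr17:31610001-31930000, 105 kb from the start. Psmc3ip had the same 350 kb peak, chr11:100740001-101090000, ending 5.43 kb from its start in c7 and at E18.5, while the nearest peak was 85.4 kb away in c34 and 225 kb away in GV oocytes. Beside Mlh3, the c34 list had a single 10 kb step of H3K27me3 at 9.4 kb from the start, and the c13 peak of 210 kb began at the lower edge of the 130 kb peak of c7, 85090001.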
